A study of Homo sapiens with 10 samples.

Results

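E-cadherin (CDH1), N-cadherin (CDH2), the catenins CTNNA1, CTNNB1, CTNND1 and JUP, the adhesion molecule EPCAM, the filament protein VIM and the transcription factors ZEB1 and SNAI2 were examined as a group of genes for cell-cell adhesion and epithelial-mesenchymal transition (EMT). The list was fixed by gene symbol, and all 10 genes were found among the 60642 symbols of the expression table. All 10 also passed the filter on low values (at least 1 TPM in at least 2 samples), which left 17520 genes for testing. Bulk polyA RNA-seq had been done on 5 untreated human prostate cancer cell lines, LNCaP (clone FGC), DUCAP, VCAP, DU145 and PC3, with 2 biological repeats of each and 10 samples in all. Every line had been grown in phenol-red-free RPMI with fetal bovine serum and harvested in exponential growth, so no treatment separates the samples and each group is a single established line. Levels are given as TPM, the share of a sample's transcripts that a gene holds, corrected for transcript length and scaled to a fixed total, so that genes may be set side by side.

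Adherens junctions hold epithelial cells together through classical cadherins, which span the membrane and bind the cadherins of the neighbouring cell. Inside the cell, β-catenin (CTNNB1) or plakoglobin (JUP) binds the cadherin tail, α-catenin (CTNNA1) couples that complex to actin, and p120-catenin (CTNND1) keeps the cadherin at the membrane. In EMT, an epithelial cell loses E-cadherin and gains vimentin and often N-cadherin, under transcription factors such as ZEB1 and SNAI2 (SLUG) that bind E-box sequences.

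All 10 samples held the epithelial keratins KRT8 (98.95 to 858 TPM) and KRT18 (120.4 to 1077 TPM). The prostate luminal markers KLK2 and KLK3 were between 28.3 and 8172 TPM in LNCaP, DUCAP and VCAP and at 0.77 TPM or less in DU145 and PC3, while HOXB13 was at 328 and 502 TPM in PC3 and at 0.03 and 0.02 TPM in DU145. Of the 6 markers of other cell types, PTPRC, PECAM1, COL1A2 and DCN stayed under 1 TPM in every sample, COL1A1 reached 31.5 and 38.0 TPM in PC3 and LUM 5.35 and 5.12 TPM in VCAP. The part of these genes in the results was not tested. Mitochondrial genes took 12.7 to 15.0% of the TPM in PC3 and 32.1 to 36.0% in DUCAP and VCAP, and TPM of other genes are shares of what remains. Calls were therefore repeated after rescaling without mitochondrial genes, with median-ratio scaling and with quantile normalization, and those that changed are given with the gene or the pair of lines. In bulk RNA, fewer cells with a transcript and less of it per cell cannot be told apart.

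All 10 genes differed among the 5 lines (adjusted p under 0.05, limma moderated F test on log2(TPM + 1)), as did 90.8% of all tested genes, so the call alone sets these genes apart from few others. The sizes of the differences were unequal. VIM spanned 10.08 log2 units from its lowest to its highest line, CTNNA1 7.74, CDH1 5.64 and CDH2 5.32, whereas CTNNB1 spanned 1.47 and CTNND1 0.63. Over 19 settings of the analysis, CTNND1 passed the F test in 10 and CTNNB1 in 17 (not with median-ratio scaling or quantile normalization), CDH2 passed in the 17 in which it could be tested, and the other 7 genes passed in each. The plots of TPM by line show these patterns gene by gene.

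**Figure D1:**
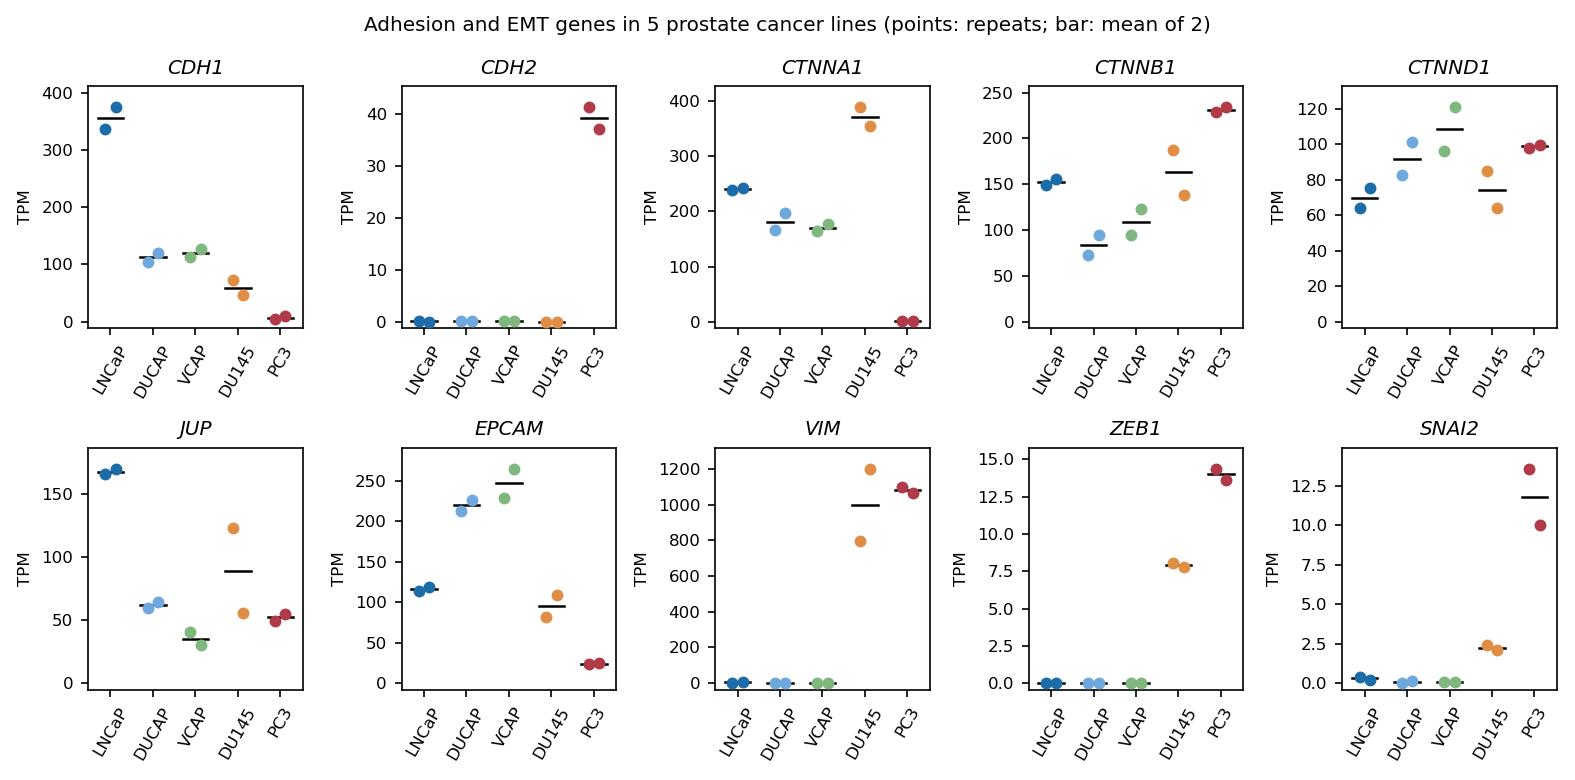
TPM (y axis, linear, a separate scale per gene) of the 10 genes in the 5 lines (x axis), with a point for each of the 2 repeats and a bar for their mean. CTNNA1 was at 0.82 and 0.68 TPM in PC3 and at 164 TPM or more in every other sample, VIM was at 799 TPM or more in DU145 and PC3 and at 4.25 TPM or less elsewhere, and CTNND1 stayed between 63.8 and 121 TPM.

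CDH1 (chromosome 16, 68737292 to 68835537), the cadherin of epithelial junctions, was highest in LNCaP and lowest in PC3. Its levels were 337 and 375 TPM in the LNCaP repeats, 104 and 120.05 TPM in DUCAP, 114 and 127 TPM in VCAP, 72.3 and 46.3 TPM in DU145, and 3.78 and 9.74 TPM in PC3. All 4 samples of DU145 and PC3 lay below the other 6 samples. The mean of LNCaP, 356 ± 26.8 TPM (SD, n = 2), was 52.6 times that of PC3, 6.76 ± 4.21 TPM. In the order of the lines, LNCaP exceeded VCAP by 1.55 log2 units (adjusted p = 0.0051, limma), VCAP and DUCAP did not pass the test (0.10, adjusted p = 0.92), and DU145 exceeded PC3 by 3.04 (adjusted p = 0.00019). The step from DUCAP to DU145, 0.94, passed narrowly (adjusted p = 0.043), and it no longer passed when DU145 repeat 2 or either repeat of LNCaP, DUCAP or VCAP was left out (adjusted p 0.06 to 0.2). The PC3 repeats differed 2.58-fold from each other, the widest gap between repeats of CDH1 in any line.

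CDH2 (chromosome 18, 27932879 to 28177130), the cadherin of neural and mesenchymal junctions, was a transcript of PC3. It stood at 41.2 and 37.0 TPM in PC3, 39.1 ± 2.97 TPM (SD, n = 2), while the LNCaP repeats had 0.10 and 0 TPM, DUCAP 0.05 and 0.09 TPM, VCAP 0.06 and 0.20 TPM, and both DU145 repeats were listed at 0. PC3 exceeded the next line, VCAP, by 5.15 log2 units (adjusted p = 4.4e-08, limma), and no other pair of neighbouring lines passed (adjusted p 0.69 to 0.89). DU145, which resembled PC3 in its VIM level, held no CDH2 transcript that the table records. By the gap between the nearest samples, CDH2 ranked 23 of the 3748 genes higher in PC3 than in all other samples.

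In DU145 and PC3 other cadherins were more abundant than CDH1 and CDH2. Of 15 further cadherin genes, 10 could be tested, and in the contrast of the mean of DU145 and PC3 with the mean of LNCaP, DUCAP and VCAP 6 were higher, 3 lower and 1 not called, with a median difference of 0.61 log2 units against 0.40 over all tested genes, of which 51.9% were higher and 22.5% lower. The count of 6 became 2 when either PC3 repeat was left out, since genes that reached 1 TPM in PC3 alone, CDH11 among them, then failed the filter. The 3 lower genes, CDH10, CDH17 and CDH26, passed the filter only through LNCaP, DUCAP or VCAP. The filter thus favoured the direction in which these genes were called, and it in part sets both counts. CDH10 and CDH17 were named after their values were seen. CDH11, known as OB-cadherin, was at 173 and 132 TPM in PC3 and listed at 0 in the other 8 samples. CDH3, the P-cadherin of basal epithelium, was at 156 and 93.6 TPM in DU145, at 5.58 and 8.82 TPM in PC3 and at 2.74 TPM or less in LNCaP, DUCAP and VCAP. CDH26 ran the other way, at 8.22 to 12.9 TPM in LNCaP, DUCAP and VCAP and at 0.29 TPM or less in DU145 and PC3. Each of the 3 differed between the 2 sets of lines (CDH11 by 3.63, CDH3 by 3.78, CDH26 by -3.24 log2 units, limma adjusted p 2.5e-08 to 8.5e-07). CDH11 was thus found in PC3 alone, while CDH3 was highest in DU145 and lower in PC3, where it still exceeded LNCaP, DUCAP and VCAP (adjusted p 0.00019 to 0.012, limma).

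Summed over the 17 cadherin genes, total cadherin TPM was highest in LNCaP, and as deposited it was higher in DU145 and PC3 than in DUCAP and VCAP. The sum was 253 and 157 TPM in DU145 and 245 and 209 TPM in PC3, between 119.96 and 146 TPM in DUCAP and VCAP, and 353 and 393 TPM in LNCaP. Rescaled without mitochondrial genes it was 331 and 188 TPM in DU145, 285 and 250.1 TPM in PC3, between 188 and 225 TPM in DUCAP and VCAP, and 446 and 491 TPM in LNCaP, so that DU145 repeat 2 lay level with the lower DUCAP repeat and below both VCAP repeats. CDH1 made up 95.5 and 95.4% of it in LNCaP, 87.1 and 86.9% in DUCAP and 84.3 and 87.0% in VCAP. In DU145 that share was 28.6 and 29.6%, with CDH3 at 61.7 and 59.8%. In PC3 it was 1.54 and 4.65%, with CDH11 at 70.8 and 63.1% and CDH2 at 16.8 and 17.7%. These are shares within a sample and do not depend on its mitochondrial fraction.

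**Figure D2:**
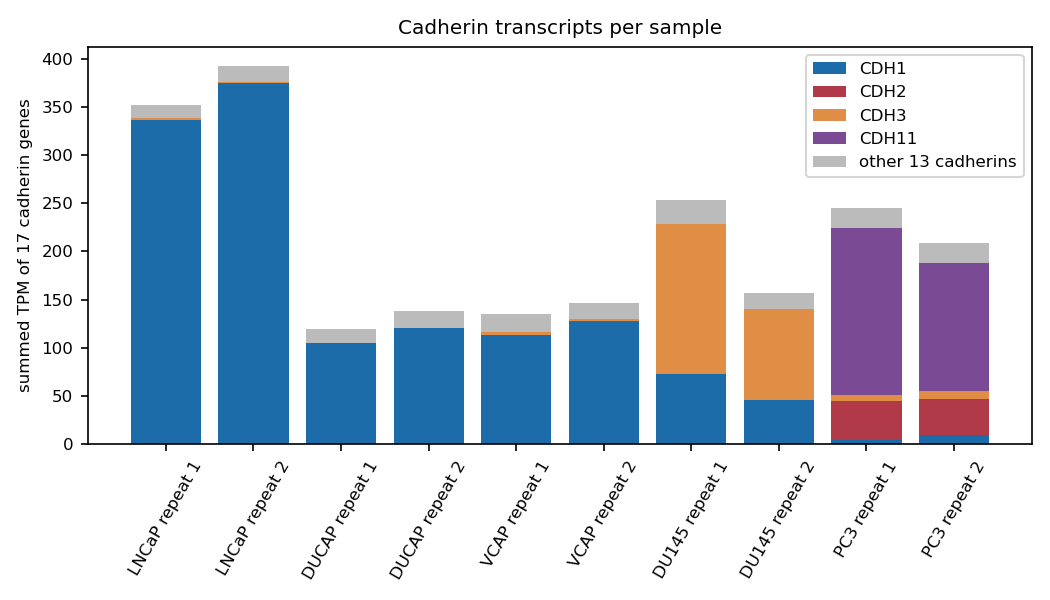
Summed TPM (y axis, linear from 0) of 17 cadherin genes in each of the 10 samples (x axis), split into CDH1, CDH2, CDH3, CDH11 and the remaining 13. CDH1 filled 84.3% or more of the bar in LNCaP, DUCAP and VCAP, CDH3 was the largest part in DU145 and CDH11 in PC3.

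CTNNA1 (chromosome 5, 138753425 to 138935034), the α-catenin that couples the cadherin complex to actin, was nearly missing from PC3. It was at 239 and 242 TPM in LNCaP, 167 and 197 TPM in DUCAP, 164 and 177 TPM in VCAP, 389 and 355 TPM in DU145, and 0.82 and 0.68 TPM in PC3. As deposited, DU145 was the highest line and PC3 the lowest, so the 2 lines that share high VIM stood at opposite ends for this gene. Under median-ratio scaling DU145 no longer passed the test against DUCAP. The mean of DU145, 372 ± 23.8 TPM (SD, n = 2), was 496 times that of PC3, 0.75 ± 0.099 TPM. VCAP, the next lowest line, exceeded PC3 by 6.62 log2 units (adjusted p = 1.7e-08, limma). By the gap between the nearest samples, 6.504 log2 units, CTNNA1 ranked 2 of the 1558 genes lower in PC3 than in all other samples. Among the remaining lines DU145 exceeded LNCaP by 0.63 (adjusted p = 0.0033) and DUCAP and VCAP did not pass (0.09, adjusted p = 0.73). LNCaP exceeded DUCAP by 0.41 (adjusted p = 0.023), a call that did not hold without either LNCaP repeat or DUCAP repeat 1 (adjusted p 0.096 to 0.15) and that turned to -0.36 under median-ratio scaling (adjusted p = 0.022). It was not called after rescaling without mitochondrial genes (0.13, adjusted p = 0.4) or with quantile normalization (-0.14, adjusted p = 0.45).

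RefSeq (GRCh38.p14) lists 4 windows of 300 bases (250 before and 50 after a transcript start) for CTNNA1, 2 at its first exon and 2 near starts inside the gene. The first is printed because it is the outermost start of the gene whose transcript PC3 nearly lacked, in lower case because no motif searched here occurs in it.
CTNNA1 window 1, chr5:138753175-138753474, + strand: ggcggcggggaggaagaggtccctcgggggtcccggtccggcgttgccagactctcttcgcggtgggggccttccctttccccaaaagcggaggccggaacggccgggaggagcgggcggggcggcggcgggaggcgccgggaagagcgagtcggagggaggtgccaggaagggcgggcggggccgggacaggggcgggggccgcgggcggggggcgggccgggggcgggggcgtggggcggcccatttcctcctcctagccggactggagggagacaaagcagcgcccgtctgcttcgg

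The genes around CTNNA1 kept more of their transcripts in PC3 than CTNNA1 did. LRRTM2, which lies within the CTNNA1 interval, was at 0.05 TPM or less in every sample and failed the filter. SIL1, an exchange factor of the endoplasmic reticulum whose interval begins 11690 bp beyond the CTNNA1 end, was at 8.82 and 10.1 TPM in PC3, at 21.0 to 26.0 TPM in DUCAP, VCAP and DU145, and at 84.9 and 92.2 TPM in LNCaP. SIL1 was lower in PC3 than in each other line (1.17 to 3.10 log2 units, limma adjusted p 4.1e-07 to 8.4e-05), a reduction of 2.38 to 9.35 times in mean TPM against 227 to 496 times for CTNNA1. On the other side, PC3 had HSPA9 at 220.1 and 170.01 TPM, ETF1 at 58.4 and 51.0 TPM and EGR1 at 0.96 and 1.51 TPM, the last within the range of LNCaP (1.95 and 0.75 TPM). MATR3, next after SIL1, was at 96.5 and 94.5 TPM in PC3 and between 104 and 156 TPM elsewhere. Against each of the other 4 lines, the difference of CTNNA1 in PC3 was larger than that of any of these 6 neighbours outside the gene, of which EGR1 differed most (5.23 log2 units against DU145).

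**Figure D3:**
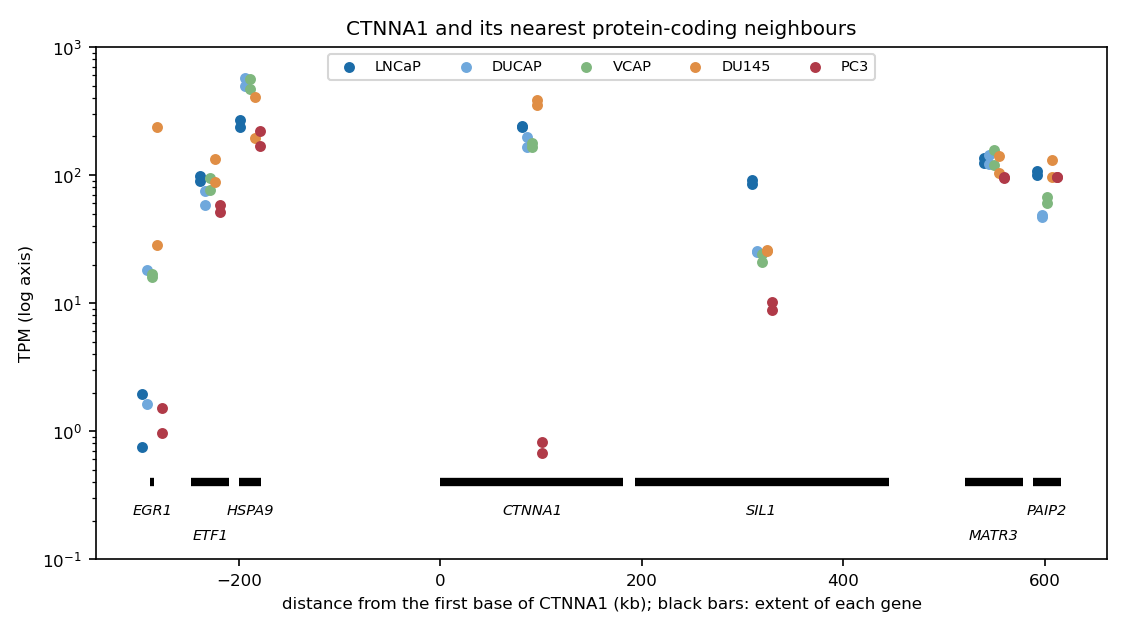
TPM (y axis, log scale) of CTNNA1 and of the 3 nearest protein-coding genes outside it on either side, with a point for each of the 10 samples coloured by line, against distance from the first base of CTNNA1 (x axis, kb). Black bars give the extent of each gene, points are shifted sideways by line, and values of 0 or below the axis are not drawn. In PC3, CTNNA1 lies at 0.82 and 0.68 TPM, EGR1 at 0.96 and 1.51 TPM and SIL1 at 8.82 and 10.1 TPM.

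The closest relatives of CTNNA1 were low in every line. CTNNA2, the neural α-catenin, did not exceed 0.19 TPM in any sample and failed the filter. CTNNA3 was at 1.60 and 1.88 TPM in PC3 and at 2.54 TPM or less in the other samples. The summed TPM of the catenins that bind α-catenin, CTNNB1 and JUP, was 278 and 289 TPM in PC3. The log2 ratio of CTNNA1 to that sum was -8.57 ± 0.23 (SD, n = 2) in PC3 and lay between -0.41 and 0.60 in the other lines. With a pseudocount of 1 in the ratio the PC3 value was -7.35.

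CTNNB1 (chromosome 3, 41199505 to 41240443), β-catenin, which also acts in WNT signalling, was present in every line. Its levels were 229 and 234 TPM in PC3, 188 and 138 TPM in DU145, 149 and 156 TPM in LNCaP, 95.0 and 123 TPM in VCAP, and 72.9 and 94.7 TPM in DUCAP. Both PC3 repeats lay above all other samples. No step between neighbouring lines passed the test (adjusted p 0.059 to 0.75, limma), while the highest line exceeded the lowest by 1.47 log2 units (adjusted p = 0.00021), a 2.76-fold ratio of mean TPM. Without DU145 repeat 1 the step from PC3 to DU145 passed (0.74, adjusted p = 0.016 in limma), and the step from LNCaP to VCAP passed without either DU145 repeat or without VCAP repeat 2 (adjusted p 0.026 to 0.041).

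JUP (chromosome 17, 41754609 to 41786711), plakoglobin, which serves both adherens junctions and desmosomes, was highest in LNCaP. It was at 166 and 170.05 TPM in LNCaP, 123 and 55.4 TPM in DU145, 59.6 and 64.3 TPM in DUCAP, 49.4 and 55.0 TPM in PC3, and 40.7 and 30.1 TPM in VCAP. The DU145 repeats differed 2.22-fold, so the place of DU145 in this order is uncertain. LNCaP exceeded DU145 by 1.01 log2 units (adjusted p = 0.026, limma), a call lost without DU145 repeat 2 or either LNCaP repeat (adjusted p 0.07 to 0.1). LNCaP exceeded VCAP, the lowest line, by 2.23 (adjusted p = 0.00044 in limma). The other steps did not pass with all samples, but DU145 exceeded DUCAP without DU145 repeat 2 (0.98, adjusted p = 0.0019), and PC3 exceeded VCAP without either DU145 repeat (0.56, adjusted p 0.0095 to 0.0096). The step from DUCAP to PC3, 0.24 as deposited, passed with median-ratio scaling (1.05, adjusted p = 0.02 in limma) and with quantile normalization (1.09, adjusted p = 0.03). CTNNB1 and JUP bind the same site of the cadherin tail, and their proportion changed between lines. CTNNB1 made up 47.3 and 47.8% of their summed TPM in LNCaP, 55.0 and 59.6% in DUCAP, 60.4 and 71.4% in DU145, 70.02 and 80.4% in VCAP, and 82.2 and 81.0% in PC3.

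CTNND1 (chromosome 11, 57761802 to 57819540), p120-catenin, had the smallest span of the 10 genes in TPM as deposited, and its order of lines depended on the scaling. The repeats had 64.0 and 75.1 TPM in LNCaP, 84.7 and 63.8 TPM in DU145, 82.4 and 101 TPM in DUCAP, 98.0 and 99.5 TPM in PC3, and 96.3 and 121 TPM in VCAP. Both LNCaP repeats lay within the range of DU145 and both PC3 repeats within that of DUCAP, and as deposited no neighbouring pair passed (adjusted p 0.18 to 0.74, limma). VCAP exceeded LNCaP by 0.63 log2 units (adjusted p = 0.018), and this was lost without VCAP repeat 2 or LNCaP repeat 1 (adjusted p = 0.12 for each). DUCAP exceeded DU145 without DU145 repeat 1 (0.51, adjusted p = 0.043). With all samples kept, that step passed after rescaling without mitochondrial genes (0.59, adjusted p = 0.027), with median-ratio scaling (1.08, adjusted p = 0.00093) and with quantile normalization (1.04, adjusted p = 0.0015). PC3, whose mean lay between those of DUCAP and VCAP as deposited, fell below both under all 3. VCAP then exceeded PC3 by 0.52, 0.72 and 0.86 log2 units in the same order (adjusted p = 0.042, 0.0074 and 0.004, limma). PC3 stood to DUCAP at -0.25 (adjusted p = 0.29), -0.70 (adjusted p = 0.0087) and -0.76 (adjusted p = 0.0074).

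Of 12 further catenin and junction-linker genes, 11 could be tested, and 4 were higher, 3 lower and 4 not called in DU145 and PC3. Their median difference was 0.17 log2 units, against 0.40 over all tested genes, of which 51.9% were higher and 22.5% lower. VCL, vinculin, which binds α-catenin under tension, was at 346 and 334 TPM in PC3 and 99.4 and 85.7 TPM in DU145, at 39.2 and 37.5 TPM in LNCaP and between 13.4 and 16.4 TPM in DUCAP and VCAP. VCL was highest in PC3, the line with the least CTNNA1, at 3.67 times the DU145 mean. The other lines did not follow that order. DU145 had the most CTNNA1 as deposited (mean 372 TPM) and came next in VCL. DUCAP and VCAP had less CTNNA1 (means 182 and 171 TPM) and the least VCL. A link between VCL and CTNNA1 was not tested. NECTIN3, an adhesion molecule that AFDN links to actin, was at 21.9 and 17.7 TPM in PC3, 7.91 and 8.98 TPM in DU145, 4.28 and 6.51 TPM in VCAP and 1.48 TPM or less in DUCAP and LNCaP. CTNND2, the neural relative of CTNND1, was at 12.8 to 17.6 TPM in DUCAP and VCAP and at 1.49 TPM or less in the others. All 3 passed the test between the sets of lines (VCL 3.07, NECTIN3 2.40, CTNND2 -2.12 log2 units, limma adjusted p 2.8e-08 to 8.1e-07), though CTNND2 was near 0 in LNCaP as well as in DU145. NECTIN4, another lower gene, was named after its values were seen. It passed the filter only through LNCaP, DUCAP and VCAP, which favours a lower call in DU145 and PC3.

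EPCAM (chromosome 2, 47369311 to 47387020), the epithelial cell adhesion molecule, was highest in VCAP and DUCAP and lowest in PC3. It was at 229 and 264 TPM in VCAP, 213 and 226 TPM in DUCAP, 114 and 118 TPM in LNCaP, 81.9 and 109 TPM in DU145, and 23.4 and 25.0 TPM in PC3. The samples of DU145 and PC3 did not overlap the other 6, but DU145 repeat 2 lay 0.06 log2 units below the lower LNCaP repeat. DUCAP exceeded LNCaP by 0.91 log2 units (adjusted p = 0.0011, limma) and DU145 exceeded PC3 by 1.92 (adjusted p = 2.5e-05). VCAP and DUCAP (adjusted p = 0.54) and LNCaP and DU145 (adjusted p = 0.14) did not pass, the latter passing without DU145 repeat 2 (0.50, adjusted p = 0.013) and with quantile normalization (0.34, adjusted p = 0.038). PC3 kept EPCAM at 24.2 ± 1.11 TPM (SD, n = 2), above its CDH1 level in both repeats. That order was not particular to PC3, since EPCAM also exceeded CDH1 in both repeats of DUCAP, VCAP and DU145. In LNCaP CDH1 was the higher of the pair.

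VIM (chromosome 10, 17228241 to 17237593), vimentin, the intermediate filament of mesenchymal cells, was present at high level in DU145 and PC3 and nearly or wholly missing from the other lines. It was at 799 and 1201 TPM in DU145, 1097 and 1067 TPM in PC3, and 3.28 and 4.25 TPM in LNCaP, and both repeats of DUCAP and of VCAP were listed at 0. Its level in PC3, 1082 ± 21.1 TPM (SD, n = 2), did not pass the test against DU145, 999.9 ± 284 TPM (0.14 log2 units, adjusted p = 0.59, limma). DU145 exceeded LNCaP by 7.69 log2 units (adjusted p = 6.2e-08), a 266-fold ratio of mean TPM, and LNCaP exceeded DUCAP by 2.24 (adjusted p = 3.1e-05). VIM ranked 7 of the 3473 genes higher in all samples of DU145 and PC3 than in the rest, by a gap of 7.25 log2 units. VIM-AS1, the antisense transcript at this locus, which was looked up after the VIM values were seen, was at 4.64 to 4.92 TPM in DU145 and PC3 and at 0.19 TPM or less in the others. The strand setting of the quantification is not given in the sources used here, so VIM-AS1 cannot be fully told apart from VIM.

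ZEB1 (chromosome 10, 31318417 to 31529804), a zinc finger repressor of epithelial genes, was found in the same lines as VIM at a far lower level. It was at 14.4 and 13.6 TPM in PC3 and 8.02 and 7.81 TPM in DU145, and no sample of LNCaP, DUCAP or VCAP exceeded 0.02 TPM. PC3 exceeded DU145 by 0.75 log2 units (adjusted p = 0.0013, limma), and DU145 exceeded DUCAP by 3.14 (adjusted p = 2.7e-07). SNAI2, the repressor SLUG, also separated the 2 sets without overlap, at 13.6 and 10.03 TPM in PC3, 2.41 and 2.08 TPM in DU145, 0.40 and 0.19 TPM in LNCaP, 0 and 0.14 TPM in DUCAP and 0.05 TPM in both VCAP repeats. Here PC3 exceeded DU145 by 1.97 (adjusted p = 4e-05) and DU145 exceeded LNCaP by 1.33 (adjusted p = 0.00026). Both factors were thus higher in PC3 than in DU145, the line that kept more CDH1, whereas for VIM this difference did not pass the test.

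ZEB1 and SNAI2 bind the E-box CACCTG, which reads CAGGTG on the other strand. Among the 300-base RefSeq windows of GRCh38.p14, 20.6% of 35116 hold it on either strand, 3.49% at least 2 copies and 0.635% at least 3. Windows were listed for 6 of the 10 genes, CTNNA1, CTNNB1, JUP, CDH2, VIM and ZEB1, with 17 windows between them. Of these, 3 hold the letters, which is close to the share of all windows. The 3 are JUP window 2 (2 copies), ZEB1 window 1 (1 copy) and ZEB1 window 3 (3 copies). Printed below are the VIM window and ZEB1 window 3, with every copy of the E-box in capitals. These 2 genes had the clearest separation between the sets of lines. Of the 7 ZEB1 windows, window 3 holds the most copies, and all but windows 1 and 3 hold none. In ZEB1 window 3 the copies begin at positions -242, -85 and 34 from the transcript start, and the VIM window has none. The letters describe the windows and were not tested for binding.
VIM window 1, chr10:17227991-17228290, + strand: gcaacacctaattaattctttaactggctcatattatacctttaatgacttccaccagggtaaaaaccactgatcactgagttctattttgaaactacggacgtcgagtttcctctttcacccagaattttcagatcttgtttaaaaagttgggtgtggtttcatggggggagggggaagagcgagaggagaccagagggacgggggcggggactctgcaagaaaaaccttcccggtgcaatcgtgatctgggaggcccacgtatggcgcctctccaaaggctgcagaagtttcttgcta
ZEB1 window 3, chr10:31318966-31319265, + strand: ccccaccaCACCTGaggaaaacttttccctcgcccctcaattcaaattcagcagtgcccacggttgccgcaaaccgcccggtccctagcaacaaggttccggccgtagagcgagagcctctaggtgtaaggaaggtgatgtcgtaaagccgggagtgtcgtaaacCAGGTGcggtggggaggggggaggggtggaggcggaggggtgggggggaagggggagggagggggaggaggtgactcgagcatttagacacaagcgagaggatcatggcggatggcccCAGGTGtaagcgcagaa

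Other EMT factors were spread over DU145 and PC3 in different ways. Of 11 further factors 7 could be tested, 6 were higher in DU145 and PC3 and 1, GSC, lower. Their median was 1.496 log2 units, against 0.40 over all tested genes, of which 51.9% were higher and 22.5% lower. TWIST2, TCF4 and KLF8 passed the filter only through DU145 or PC3, and GSC only through LNCaP. The filter thus favoured the direction in which each was called, and it in part sets the count. GSC and KLF8 were named after their values were seen. TWIST1 was at 16.3 and 14.6 TPM in PC3, at 1.49 and 1.08 TPM in LNCaP and listed at 0 elsewhere. Its relative TWIST2 was at 12.9 and 11.6 TPM in DU145 and 5.53 and 4.82 TPM in PC3 and listed at 0 in the other lines. TCF4, a bHLH partner factor, was at 9.67 and 12.8 TPM in PC3 and at 0.89 TPM or less in the other samples. Among these 3 genes, only TWIST2 exceeded 1 TPM in both DU145 and PC3. ZEB2, the paralogue of ZEB1, stayed at 0.52 TPM or less in every sample.

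Epithelial regulators moved against them, with exceptions. Of 11 genes 10 could be tested, and 6 were lower, 2 higher and 2 not called in DU145 and PC3, with a median of -1.76 log2 units (22.5% of all tested genes were lower and 51.9% higher, with a median of 0.40). GRHL2, a grainyhead factor that maintains epithelial gene expression, was at 33.3 to 47.99 TPM in LNCaP, DUCAP and VCAP and at 0.09 TPM or less in DU145 and PC3. ESRP1, an epithelial splicing regulator, was at 36.7 to 83.9 TPM against 0.25 to 4.4 TPM, and EHF, an epithelial ETS factor, at 113 to 170 TPM against 5.81 TPM or less. The differences were -5.25, -4.44 and -5.98 log2 units (limma adjusted p 6.3e-09 to 3.1e-08). GRHL2 passed the filter only through LNCaP, DUCAP and VCAP, and so did OVOL1, a further lower gene named after its values were seen. The filter thus favoured a lower call for both, and it in part sets the count. The 2 that were higher, named after their values were seen, were KLF4 (5.3 to 18.04 TPM in DU145 and PC3 against 1.56 to 4.08 TPM) and KLF5 (43.2 to 121 TPM against 1.64 to 8.65 TPM).

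Of 10 other mesenchymal markers, 7 were higher, 2 lower and 1 not called in DU145 and PC3, with a median of 3.04 log2 units (51.9% of all tested genes were higher and 22.5% lower, with a median of 0.40). The genes with the largest range over lines differed between those 2 lines. NNMT, a methyltransferase, was at 457 and 342 TPM in DU145 but 6.09 and 4.02 TPM in PC3, and TGFBI, a matrix protein, at 127 and 93.6 TPM in DU145 but 0.39 and 0.31 TPM in PC3. FN1, fibronectin, ran the other way, at 247 and 370.3 TPM in PC3, 12.99 and 6.37 TPM in DU145 and 57.3 and 59.9 TPM in LNCaP, so that LNCaP exceeded DU145 in FN1. The 2 lower genes were ACTA2 and CALD1, named after their values were seen. Named in the same way, TNC (26.5 to 39 TPM against 10.4 TPM or less) and S100A4 (8.39 to 79.0 TPM against 1.44 TPM or less) were higher in both DU145 and PC3 without overlap. TGFBI passed the filter only through DU145, and SPARC, also named afterwards, only through PC3, which favours a higher call. The heat map sets these lists beside the 10 genes.

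The study sets DU145 and PC3 apart from LNCaP, DUCAP and VCAP, and the contrast between the means of these sets was called for 8 of the 10 genes. VIM (9.26 ± 0.13 log2 units, SE), ZEB1 (3.52 ± 0.079), CDH2 (2.55 ± 0.085), SNAI2 (2.50 ± 0.11) and CTNNB1 (0.79 ± 0.13) were higher in DU145 and PC3, which is 5 of 10 where 51.9% of all tested genes were (limma adjusted p 2.1e-09 to 0.00052). CDH1 (-3.05 ± 0.23), CTNNA1 (-2.94 ± 0.082) and EPCAM (-1.92 ± 0.10) were lower, 3 of 10 where 22.5% of all tested genes were (adjusted p 2.6e-08 to 5e-06). JUP (-0.12 ± 0.21, adjusted p = 0.61) and CTNND1 (-0.05 ± 0.12, adjusted p = 0.74) were not called. These shares are close to the background, and the count is therefore no result about these genes. CDH2, ZEB1 and SNAI2 also passed the filter only through DU145 or PC3, which favours a higher call there. The contrast hides that CTNNA1 was, as deposited, highest in DU145 and that CDH2 was not found there. Samples of the 2 sets did not overlap for 3 of the 10 genes that were higher (VIM, ZEB1 and SNAI2), where 19.8% of all tested genes separated in that direction, and for 2 that were lower (CDH1 and EPCAM), where 6.92% did.

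The median over all tested genes in this contrast was 0.40 log2 units as deposited, 0.20 after rescaling without mitochondrial genes, 0.00 with median-ratio scaling and -0.08 with quantile normalization. The calls over all genes, 9093 higher and 3940 lower, became 6402 and 6162 with median-ratio scaling and 5932 and 6896 with quantile normalization. The call of CTNNB1, whose difference lay closest above that shift, was lost with quantile normalization (0.29, adjusted p = 0.086 in limma). JUP and CTNND1 were called lower under both of these scalings (-0.51 to -0.62 log2 units), and JUP also without DU145 repeat 1 (-0.41, adjusted p = 0.01). The other 7 genes kept direction and call under all 3 rescalings.

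**Figure D4:**
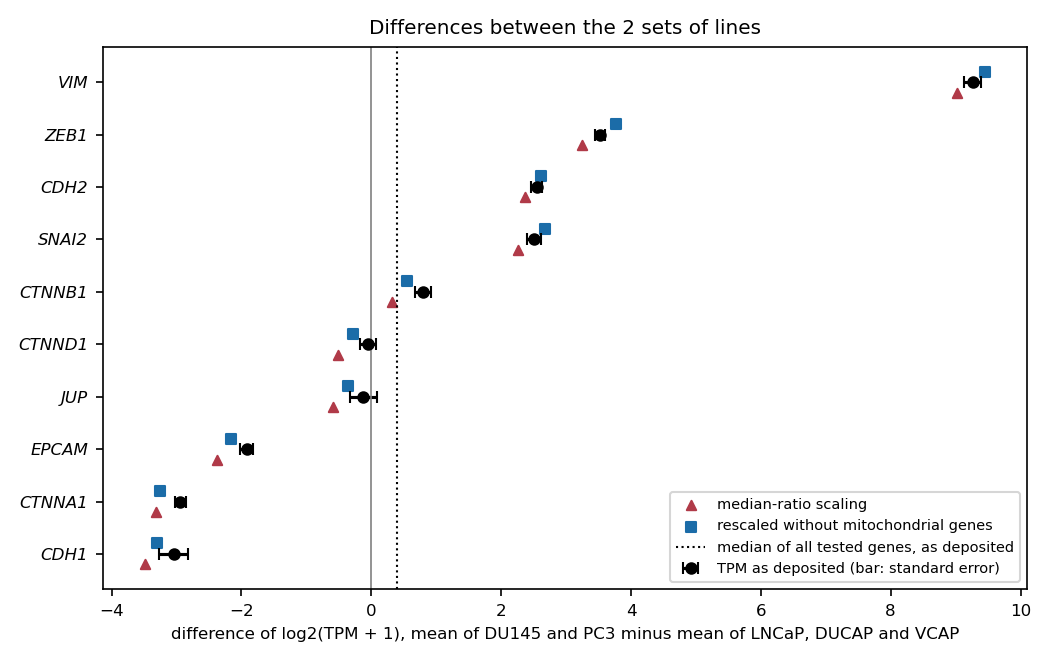
Difference of log2(TPM + 1) between the mean of DU145 and PC3 and the mean of LNCaP, DUCAP and VCAP (x axis) for the 10 genes (y axis), as deposited with standard errors (circles), rescaled without mitochondrial genes (squares) and with median-ratio scaling (triangles). The dotted line is the median of all tested genes, 0.40. VIM lies at 9.26 and CDH1 at -3.05, and JUP and CTNND1 lie near 0 as deposited.

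Between single lines, the 10 genes were called about as often as genes in general in some pairs and not in others. DUCAP and VCAP differed in none of the 10 (adjusted p under 0.05, limma), against 18.3% of all genes. The spread in each test is pooled over all lines, so the unlike DU145 repeats (JUP at 123 and 55.4 TPM) enter it. Before adjustment 1 of the 10, JUP, and 31.7% of all genes were under 0.05 in limma, and JUP also passed the adjusted test without either DU145 repeat. LNCaP differed from PC3 in all 10, against 57.7% of all genes, though CTNNB1 and CTNND1 lost that call when a repeat of LNCaP or PC3 was left out, and CTNND1 also when one of DUCAP was. LNCaP differed in 6 from DUCAP (60.7% of all genes), in 6 from VCAP (60.1%) and in 6 from DU145 (55.9%). DUCAP differed in 7 from DU145 (66.6%) and in 8 from PC3 (67.8%). VCAP differed in 9 from DU145 (65.4%) and in 8 from PC3 (67.6%). Between DU145 and PC3 the count was 6 (49.3%), CDH1, CTNNA1 and EPCAM being higher in DU145 and CDH2, ZEB1 and SNAI2 higher in PC3. Rescaling changed several of these counts. Rescaled without mitochondrial genes, with median-ratio scaling and with quantile normalization, in that order, LNCaP differed from DUCAP in 6, 4 and 4, from VCAP in 5, 5 and 5, from DU145 in 6, 6 and 7, and from PC3 in 8, 9 and 8. DUCAP differed from DU145 in 8, 6 and 7 and from PC3 in 8, 10 and 10, and VCAP from DU145 in 7, 7 and 7 and from PC3 in 9, 9 and 8. Between LNCaP and DUCAP, CTNNB1 and JUP lost their calls with median-ratio scaling and quantile normalization, and CDH1 with the former. CTNNA1 lost its call there after rescaling without mitochondrial genes and with quantile normalization, and CTNND1 was gained under all 3. CTNND1 was also gained under all 3 between VCAP and PC3, where CTNNB1 was lost with quantile normalization. Between LNCaP and VCAP, CTNNA1 lost its call under all 3. Between LNCaP and PC3, CTNND1 did so under all 3 and CTNNB1 after rescaling without mitochondrial genes and with quantile normalization. Between VCAP and DU145, CTNNB1 and JUP lost theirs under all 3, and without a filter on low values CDH1, CTNNB1 and CTNND1 did, which left 6. The counts of 0 for DUCAP against VCAP and of 6 for DU145 against PC3 were the same under all 3 rescalings. With any single sample removed, calls in these pairs changed for CDH1, CTNNA1, CTNNB1, CTNND1, JUP and EPCAM, and for VIM, ZEB1 and SNAI2 none changed.

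Genes whose log2(TPM + 1) pattern over the 10 samples most resembled that of VIM were EMP3, ELF4, MIR4435-2HG, C16orf74 and IFI27L2 (Pearson's r 0.995 to 0.997, among 11475 genes that reached 10 TPM in a sample). Those most like CDH1 were LIMCH1, KDF1, NDRG2, DHRS13 and USP9Y (r 0.982 to 0.994). Each of them was highest in LNCaP and lowest in PC3, where USP9Y was at 0.01 and 0 TPM. Those most like CTNNA1 were PAFAH1B3, DDX3Y, RPS4Y1, KAT2A and ELOVL6 (r 0.989 to 0.998), a likeness that rests on the low value of PC3. These r are descriptions over 10 samples of only 5 lines.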

How the data were processed

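Total RNA of 5 untreated prostate cancer cell lines was sequenced by the authors from strand-specific polyA libraries, with 2 biological repeats per line. The reads were checked with FastQC 0.11.9, trimmed with Trim Galore 0.6.5, aligned with STAR 2.7.2b to GRCh38 and quantified with RSEM 1.3.3 (versions from the submitters' processing notes). The authors deposited RSEM's TPM per gene symbol, which are scaled to a fixed total per sample. Column sums lay between 982880 and 991998, replicates were not pooled, and the merging of rows that share a symbol is not given in the sources used here. TPM keep no depth, so the number of reads behind a value is unknown, and precision rests on 2 repeats per line. The culture numbers of DU145 and PC3 in the labels differ from their repeat numbers, which were used.

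A gene was tested if 2 or more samples reached 1 TPM, which left 17520 genes. A gene that reached 1 TPM in only 1 set of lines passed through that set, which favours a call in its direction. A linear model of log2(TPM + 1) with a mean for each line was fitted to the 10 samples with limma 3.58.1 (R 4.3.3), the prior variance following a trend. Calls were made at 0.05 after Benjamini-Hochberg adjustment over all tested genes. A moderated F test over the lines, the 10 pairwise contrasts and the contrast of the mean of DU145 and PC3 with the mean of LNCaP, DUCAP and VCAP were computed. The added 1 TPM makes differences of low genes too small, and p-values speak of these 5 lines only. The fits were tested on simulated data in which 200 of the 17520 genes differed by 1.5 log2 units. Of the 200, 94% were recovered in the contrast between the sets of lines, with 4.57% of the calls false, and 77.5% in the F test, with 4.32% false.

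The 10 genes, the lists of related genes and the tests were chosen with earlier results of these data known. Named genes were the 10 genes, up to 3 genes per list with the largest range over lines, the 3 nearest protein-coding genes on each side of CTNNA1, and the 5 genes most correlated with CDH1, VIM and CTNNA1. Genes of the lists that are not reported here were left out of the lists' counts. Positions and promoter windows came from RefSeq tables of GRCh38.p14, in which all 10 symbols matched a position. No windows were listed for CDH1, CTNND1, EPCAM and SNAI2. The alternatives were other pseudocounts (0.1), filters (none, 5 TPM), scalings and variance models, the repeat number as a term, and each sample left out in turn. Same-numbered repeats did not deviate together (mean r 0.00922 over 10 pairs of lines, -0.191 to 0.249). Python 3.11.15, numpy 2.4.6, pandas 2.3.3 and matplotlib 3.10.9 were used.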

Additional observations from a re-analysis of the deposited data

Results flagged for a closer look

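JUP in DU145 repeat 1, at 123 TPM, lay far above the other 3 samples of DU145 and PC3. On log2(TPM + 1), its gap to the nearest of them took 0.875 of the range of the 4 samples. Such a gap was found in 1 of the 20 sets of samples examined (each of the 10 genes in the 4 samples of DU145 and PC3 and in the 6 of the other lines). For samples drawn alike, about 1 in 20 would be found by chance. The samples of a set are repeats of different lines, so that rate need not apply to them.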

How the results depend on the processing

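The calls of VIM, ZEB1, SNAI2, CDH1, CTNNA1 and EPCAM between DU145 with PC3 and the other lines, and their directions, were the same in every alternative run, and so were those of CDH2 in the alternatives that kept it. Without a PC3 repeat CDH2 failed the filter and has no value. Where 1 repeat of a line was left out, the lone sample was taken to vary like the other lines. With 2 repeats per line and TPM without depth, the precision for small differences between neighbouring lines is low, and the cause of the changes listed here was not tested.

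Median-ratio scaling gave 6162 genes lower in DU145 and PC3, with 5 of the 10 genes, and quantile normalization gave 5932 higher and 6896 lower, also with 5 of the 10 lower. Under quantile normalization CTNNB1 differed by 0.29 and was not called. CTNND1 (-0.51 and -0.58) and JUP (-0.59 and -0.62) were called under median-ratio scaling and quantile normalization.

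Directions that reversed under median-ratio scaling and quantile normalization, in that order, were CDH1 in VCAP against DUCAP (-0.12, -0.051), CTNNA1 in LNCaP against DUCAP (-0.36, -0.14), CTNNB1 in LNCaP against VCAP (-0.059, -0.071), CTNND1 in PC3 against DUCAP (-0.70, -0.76), JUP in DU145 against DUCAP (-0.36, -0.31) and JUP in PC3 against VCAP (-0.028, -0.15). CTNND1 in PC3 against DUCAP was also -0.25 after rescaling without mitochondrial genes, CDH2 in VCAP against DUCAP was -0.043 under quantile normalization, and EPCAM in VCAP against DUCAP was -0.053 under median-ratio scaling.

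With each sample left out in turn, DUCAP against VCAP called 1319 to 4955 genes and 0 to 1 of the 10 genes. The contrast between the sets of lines ranged from -0.15 to 0.055 for CTNND1 and from -0.41 to 0.16 for JUP. CTNND1 in VCAP against LNCaP ranged from 0.47 to 0.79. Between neighbouring lines the ranges were -0.013 to 0.17 for CDH2 in VCAP against DUCAP, -0.040 to 0.097 for CDH2 in DUCAP against LNCaP, -0.031 to 0.20 for CTNNA1 in DUCAP against VCAP, -0.14 to 0.30 for CTNNB1 in DU145 against LNCaP, -0.035 to 0.29 for CTNND1 in VCAP against PC3, -0.031 to 0.26 for CTNND1 in PC3 against DUCAP, -0.12 to 0.29 for CTNND1 in DU145 against LNCaP, -0.16 to 0.98 for JUP in DU145 against DUCAP, -0.15 to 0.44 for VIM in PC3 against DU145, -0.0072 to 0.021 for ZEB1 in VCAP against LNCaP and -0.070 to 0.12 for SNAI2 in DUCAP against VCAP.

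The repeat numbers mark no shared batch in the labels. With the replicate block, the contrast between the sets of lines called 13007 genes, against 13033 without it, 8 of the 10 genes among them in both, and the F test called 9 of the 10 genes, CTNND1 being lost. In the pairs of lines the block changed 1 call, CTNND1 in LNCaP against PC3.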

Other observations

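MIR200CHG, the host transcript of miR-200c and miR-141, was looked up after the values of ZEB1 were seen. These microRNAs are known to target ZEB1, and mature microRNAs were not measured by these libraries. The transcript was at 11.6 and 15.3 TPM in LNCaP, 4.77 and 2.83 TPM in DUCAP, 5.29 and 4.55 TPM in VCAP and 4.85 and 1.24 TPM in DU145, and it was listed at 0 in both PC3 repeats. DU145, which held ZEB1 at 8.02 and 7.81 TPM, overlapped DUCAP in MIR200CHG. The mature sequences (RefSeq, GRCh38.p14) are printed with the seed, bases 2 to 8, in capitals, and they differ within the seed.
miR-200c-3p, chr12:6963742-6963764, + strand: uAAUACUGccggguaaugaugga
miR-141-3p, chr12:6964155-6964176, + strand: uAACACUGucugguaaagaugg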
